A study of Homo sapiens with 6 samples.

Results

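The interferon-induced proteins with tetratricopeptide repeats (IFIT) and the oligoadenylate synthetases (OAS) were followed in RCC4, an established human line of clear cell kidney cancer. The rule for the set is membership of either family. It holds 8 genes, IFIT1, IFIT2, IFIT3, IFIT5, OAS1, OAS2, OAS3 and OASL, of 61541 genes listed in the deposited count files. RNA was compared between 3 libraries labelled untreated, with no agent named, and 3 libraries from cells exposed for 24 h to IFNg at 1000 U/mL together with TNF at 25 ng/mL. Each biological replicate came from 3 flasks of this single line, and the groups carry no other allele or agent in the labels. Because both cytokines were given together, the response to each cannot be told apart. Poly(A) RNA was read by direct RNA nanopore sequencing, in which each read is 1 native RNA molecule, so a count is a molecule assigned to a gene. The comparison asks how these antiviral genes differ in tumour cells exposed to the inflammatory cytokines.

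Both families are textbook interferon-stimulated genes and act on foreign RNA in the cytoplasm. IFIT proteins bind the ends of RNA that lack the cap modifications of host messages and hold back their translation, alone or in complexes with each other. OAS enzymes are switched on by double-stranded RNA and make short chains of adenylate joined by an unusual linkage, which act as a messenger of the antiviral state. IFNg signals through factors that bind the gamma-activated site (GAS), while type I interferons act through a complex that holds STAT2 and IRF9 at the interferon-stimulated response element (ISRE), an element that IRF1 also binds. TNF acts mainly through NF-kappaB.

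Library totals ran from 3626000 to 4406296 counts, and 14798 to 15604 genes per library had at least 1 count. A gene with 3 counts lay between 0.681 and 0.827 CPM (counts relative to the size of the library) before normalisation, so differences under that level were not detectable. In a principal component analysis, the groups fell apart on the first component (58% of the variance), while the second (27.1%) set untreated replicate 3 at -49.5, apart from the other untreated libraries. All 8 renal carcinoma and epithelial markers had counts, among them CA9 at 31.8 to 46.6 CPM over the 6 libraries. PAX8 was lower in treated cells, from 145 ± 16.6 to 83.8 ± 11.5 CPM (edgeR adjusted p = 0.0316), and VIM was higher, from 4592 ± 313 to 7283 ± 905 CPM (edgeR adjusted p = 0.0274; SD, n = 3 each), while the other 6 were not past the threshold. Of 13 leukocyte and endothelial markers, 10 were at 0 in every library, PTPRC, PECAM1 and LYZ among them. The summed level of the 13 was 2.94 to 6 CPM in untreated and 1.42 to 1.73 CPM in treated libraries. CSF1R made up nearly all of it in untreated and most of it in treated libraries. It was lower in treated cells, from 4.69 ± 1.53 to 1.23 ± 0.179 CPM (edgeR adjusted p = 0.0314; SD, n = 3 each). In bulk RNA, fewer expressing cells and less RNA per cell cannot be told apart.

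The IFIT genes stand together on chromosome 10 of GRCh38, from 89283694 to 89421605, a span of 137.9 kb on the plus strand. OAS1, OAS3 and OAS2 follow each other on the plus strand of chromosome 12, from 112905856 to 113011723, a span of 105.9 kb. OASL lies 8.01 Mb further along chromosome 12, from 121017763 to 121039242 on the minus strand. Promoter windows are shown because the ISRE, GAS and NF-kappaB elements are the known landing sites of the pathways that these cytokines use. Windows run from 250 bases before to 50 after a start site in RefSeq (GRCh38.p14) and were held for IFIT1, IFIT3, IFIT5, OAS1 and OAS3, with 2 start sites for IFIT3. IFIT2, OAS2 and OASL had no entry. Sequences read 5′ to 3′ on the plus strand, the strand of each of these genes, and capitals mark matches to GAAANNGAAA on either strand.
IFIT1, chr10:89392373-89392672: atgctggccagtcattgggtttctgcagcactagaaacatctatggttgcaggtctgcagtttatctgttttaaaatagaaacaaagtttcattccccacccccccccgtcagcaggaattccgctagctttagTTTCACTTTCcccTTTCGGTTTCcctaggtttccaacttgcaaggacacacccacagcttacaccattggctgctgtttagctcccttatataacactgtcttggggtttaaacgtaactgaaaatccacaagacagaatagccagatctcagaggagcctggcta
IFIT3, downstream start, chr10:89332279-89332578: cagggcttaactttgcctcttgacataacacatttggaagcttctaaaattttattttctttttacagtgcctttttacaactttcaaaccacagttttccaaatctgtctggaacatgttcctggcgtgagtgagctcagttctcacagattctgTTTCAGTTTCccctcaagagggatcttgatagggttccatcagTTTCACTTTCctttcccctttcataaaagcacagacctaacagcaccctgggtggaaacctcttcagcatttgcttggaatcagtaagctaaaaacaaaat
IFIT5, chr10:89414318-89414617: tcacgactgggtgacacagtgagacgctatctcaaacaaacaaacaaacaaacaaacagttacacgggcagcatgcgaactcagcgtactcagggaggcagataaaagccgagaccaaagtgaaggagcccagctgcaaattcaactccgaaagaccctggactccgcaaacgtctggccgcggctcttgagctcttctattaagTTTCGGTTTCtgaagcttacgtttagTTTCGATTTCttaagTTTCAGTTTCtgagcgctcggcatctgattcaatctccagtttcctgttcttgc
OAS1, chr12:112906712-112907011: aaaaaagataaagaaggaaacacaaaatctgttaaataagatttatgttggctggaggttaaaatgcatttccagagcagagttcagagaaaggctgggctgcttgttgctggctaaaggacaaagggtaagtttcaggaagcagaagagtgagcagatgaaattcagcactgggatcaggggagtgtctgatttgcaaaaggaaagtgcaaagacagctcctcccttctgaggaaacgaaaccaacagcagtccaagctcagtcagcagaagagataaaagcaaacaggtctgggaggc
OAS3, chr12:112938224-112938523: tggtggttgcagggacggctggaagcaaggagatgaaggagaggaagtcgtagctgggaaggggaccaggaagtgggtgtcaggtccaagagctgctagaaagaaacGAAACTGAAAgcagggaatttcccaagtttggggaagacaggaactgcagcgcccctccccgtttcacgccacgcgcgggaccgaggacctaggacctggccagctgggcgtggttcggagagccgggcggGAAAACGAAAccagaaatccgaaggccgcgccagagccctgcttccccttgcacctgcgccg
The matches in IFIT1, IFIT3 and IFIT5 lie on the minus strand, so the capitals read as the reverse complement, whereas those in OAS3 lie on the plus strand.

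**Figure D1:**
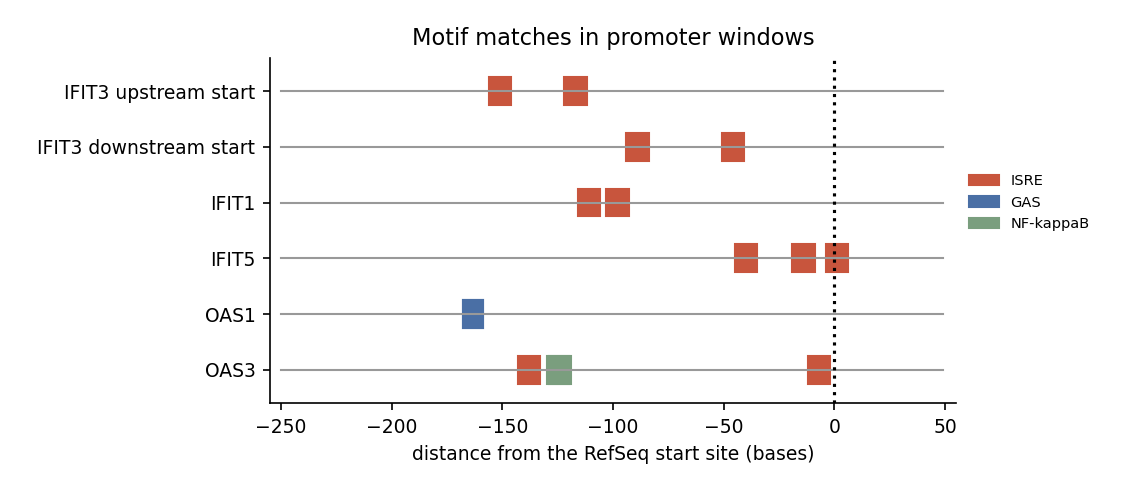
Matches to 3 motifs in the promoter windows of 5 members, drawn by distance in bases from the RefSeq start site (x axis, dotted line at 0), with 1 horizontal line per window. Coloured blocks are matches on either strand; 5 of the 6 windows hold an ISRE match and the OAS1 window holds a GAS match only.

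GAAANNGAAA was found in 5 of the 6 windows, against 3.57% of 35116 promoters of the same length in the table (1255 promoters). IFIT5 held 3 matches and each other window with a match held 2, including the upstream start of IFIT3, which is not printed. In IFIT1 the matches began 116 and 103 bases before the start, and in IFIT5 they began 45, 19 and 4 bases before it. OAS1 held no match to this spelling, but it held GAAANGAAA, with 1 free base in place of 2, beginning 17 bases before the start, a spelling found in 3.12% of all promoters. OAS1 also held the GAS spelling TTCNNNGAA, found in 7.66% of all promoters and read alike on both strands. The NF-kappaB consensus, searched by name, was found in OAS3 alone of these windows, on both strands at overlapping positions, against 11.3% of all promoters. A match of letters is a description and says nothing on whether a factor was bound.

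All 8 genes rose in treated cells. Across the whole table, edgeR's quasi-likelihood test called 562 of 10067 tested genes higher and 257 lower at an adjusted p under 0.05, so the 8 of 8 stand beside a background of 5.58% called higher and 2.55% called lower. Every treated library lay above every untreated library for each of the 8, against 13.9% of all tested genes. IFIT1, IFIT2, IFIT5, OAS2 and OASL reached the level of the low-count filter in fewer than 3 untreated libraries and so entered the test through the treated group, whereas IFIT3, OAS1 and OAS3 reached it in all 6 libraries. The median log2 fold change of the 8 was 5.81, against -0.03 over all tested genes, and the values ran from 2.85 for IFIT5 to 10.03 for OAS2.

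**Figure D2:**
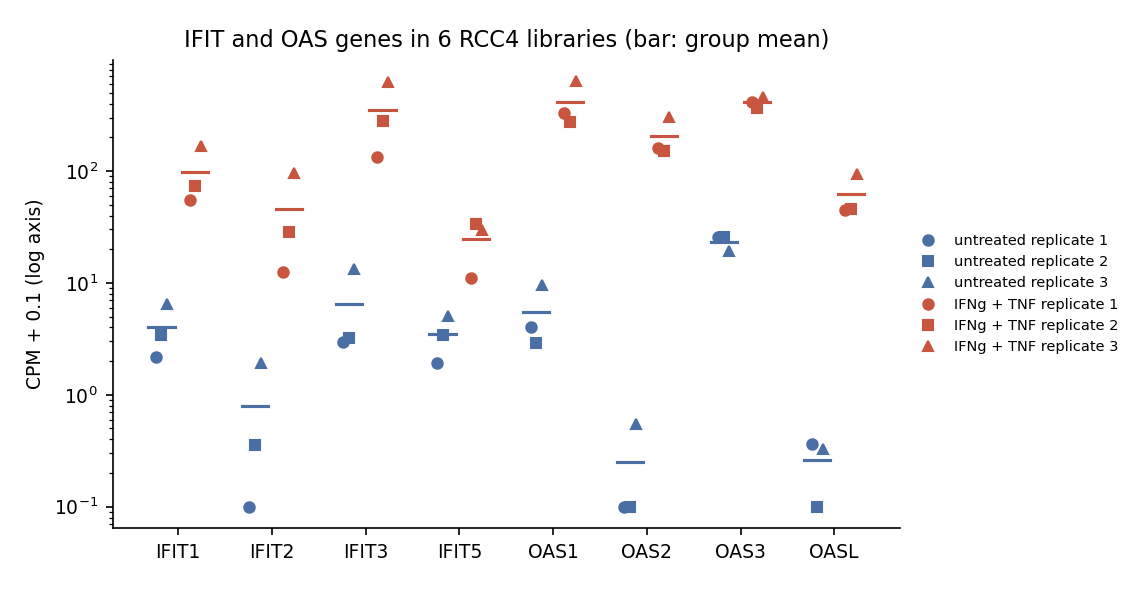
Normalised level of each member in each library, as CPM + 0.1 on a log axis, with untreated libraries in blue, treated in red, symbols for replicates 1 to 3 and bars for group means. Treated values lie above untreated values for every gene, OAS3 has the tightest groups, and untreated replicate 3 is the highest untreated library for 6 of the 8 genes. The share of all tested genes that were highest in that library was not taken, so this count is not read as particular to the members.

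IFIT1 (ENSG00000185745; chromosome 10, 89392546 to 89406487) binds RNA whose cap lacks ribose methylation. Its counts were 8, 13 and 28 in untreated replicates 1, 2 and 3 and 192, 326 and 591 in treated replicates 1, 2 and 3. The groups did not overlap, and replicate 3 was highest in both. Mean levels were 3.92 ± 2.18 CPM untreated against 98.8 ± 60.5 CPM treated (SD, 3 libraries each), and edgeR put the log2 fold change at 4.62 (SE 0.53; adjusted p = 0.000755), or 24.6-fold. Without untreated replicate 3 the log2 fold change was 5.16, and without treated replicate 3 it was 4.01.

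IFIT2 (ENSG00000119922; chromosome 10, 89283694 to 89309271) joins IFIT1 and IFIT3 in complexes. It had 0, 1 and 8 counts in the untreated libraries and 43, 127 and 337 in the treated ones. The treated libraries differed from each other by 7.74 times in CPM, more than for any other member. Mean levels were 0.689 ± 0.979 CPM untreated against 45.5 ± 44.2 CPM treated (SD, 3 libraries each), and edgeR put the log2 fold change at 5.89 (SE 1.01; adjusted p = 0.00667). Without untreated replicate 3, which held 8 of the 9 untreated counts, the log2 fold change was 8.13, and without treated replicate 3 it was 4.77.

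IFIT3 (ENSG00000119917; chromosome 10, 89327307 to 89377473) stabilises IFIT1 on RNA. It had 11, 12 and 58 counts across the untreated replicates and 466, 1242 and 2210 across the treated replicates. Untreated replicate 3 was again apart from the other untreated libraries, and treated replicates spread by 4.68 times. Mean levels were 6.36 ± 5.85 CPM untreated against 347 ± 254 CPM treated (SD, 3 libraries each), and edgeR put the log2 fold change at 5.73 (SE 0.74; adjusted p = 0.00151), or 53.1-fold. Without untreated replicate 3 the log2 fold change was 6.85, and without treated replicate 3 it was 4.99.

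IFIT5 (ENSG00000152778; chromosome 10, 89414568 to 89421605) acts without partners from the family and binds RNA ending in a triphosphate. It had 7, 13 and 22 counts across the untreated replicates and 38, 149 and 105 across the treated replicates. It was the one member with its highest treated value in replicate 2, and its lowest treated value, 10.9 CPM, stood beside a highest untreated value of 4.97 CPM. Mean levels were 3.38 ± 1.58 CPM untreated against 24.7 ± 12.1 CPM treated (SD, 3 libraries each), and edgeR put the log2 fold change at 2.85 (SE 0.50; adjusted p = 0.00735), or 7.2-fold, the smallest of the 8. Without untreated replicate 3 the log2 fold change was 3.24, and without treated replicate 3 it was 2.7.

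OAS1 (ENSG00000089127; chromosome 12, 112905856 to 112933219) is the smallest of the active synthetases. It had 15, 11 and 42 counts across the untreated replicates and 1155, 1210 and 2228 across the treated replicates. Replicate 3 was the highest of each group, and the groups were far apart. Mean levels were 5.41 ± 3.58 CPM untreated against 412 ± 193 CPM treated (SD, 3 libraries each), and edgeR put the log2 fold change at 6.22 (SE 0.51; adjusted p = 9.3e-05), or 74.4-fold. Without untreated replicate 3 the log2 fold change was 6.92, and without treated replicate 3 it was 5.78.

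OAS2 (ENSG00000111335; chromosome 12, 112978395 to 113011723) is a synthetase with a duplicated catalytic unit. It had 0, 0 and 2 counts across the untreated replicates and 553, 674 and 1071 across the treated replicates. With 2 counts in all untreated libraries together, its untreated level lay near the limit of this depth. Treated libraries held 1219 times the untreated level by summed counts (95% counting interval 337 to 10069, which covers counting error only). The log2 fold change fitted by edgeR was 10.03 (SE 0.61; adjusted p = 1.64e-05), and this fitted size depends on the prior count. It was 12.62 without untreated replicate 3, which held both untreated counts, and 9.64 without treated replicate 3. It ranked 13 of 10067 genes by log2 fold change.

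OAS3 (ENSG00000111331; chromosome 12, 112938051 to 112976460) carries the longest array of such units and responds to long double-stranded RNA. It was the most counted member in untreated cells, with 98, 99 and 84 counts, against 1423, 1616 and 1598 in treated libraries. Both groups were tight, and untreated replicate 3, the highest for most members, was here the lowest. Mean levels were 23.3 ± 3.76 CPM untreated against 409 ± 45.4 CPM treated (SD, 3 libraries each), and edgeR put the log2 fold change at 4.13 (SE 0.21; adjusted p = 6.44e-06), or 17.5-fold. The log2 fold change was 3.99 without untreated replicate 3 and 4.05 without treated replicate 3. Its rank was 99 by log2 fold change and 15 by p.

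OASL (ENSG00000135114; chromosome 12, 121017763 to 121039242) lacks the synthetase activity and carries ubiquitin-like domains through which it acts on the sensor RIG-I. It had 1, 0 and 1 counts across the untreated replicates and 155, 203 and 333 across the treated replicates. As for OAS2, the untreated group rests on 2 counts. By summed counts the treated level was 366 times the untreated one (95% counting interval 101 to 3032), and the fitted log2 fold change was 8.29 (SE 0.60) with an edgeR adjusted p of 4.39e-05. It was 8.57 without untreated replicate 3 and 7.85 without treated replicate 3.

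**Figure D3:**
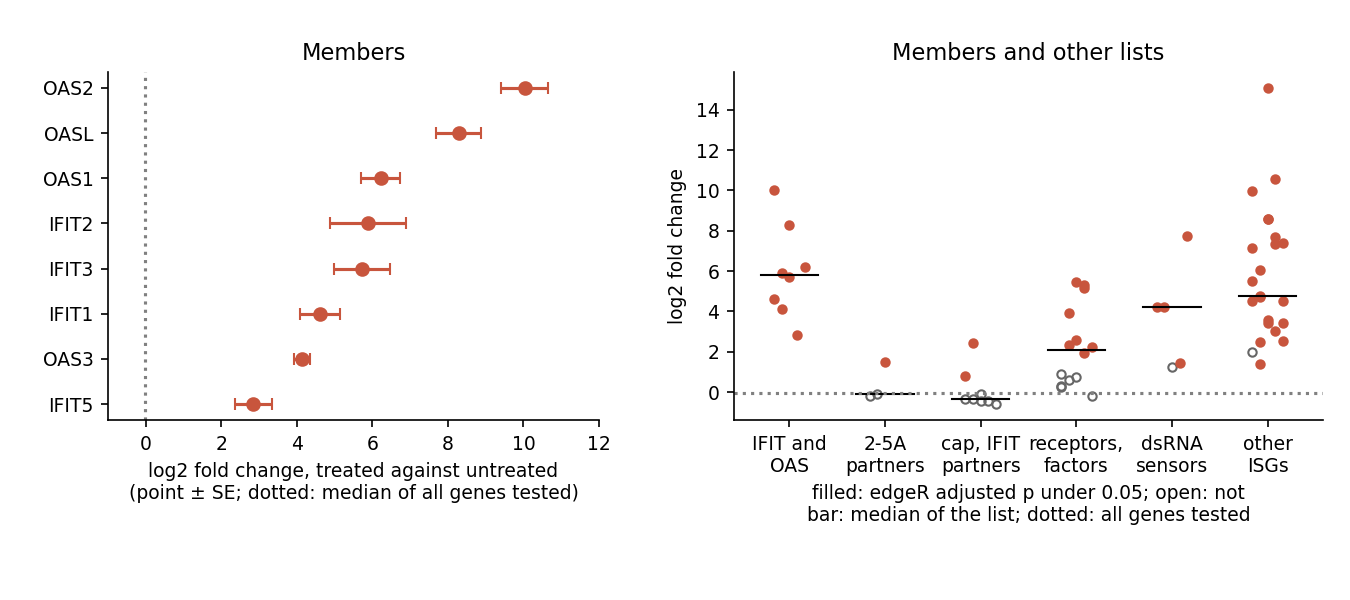
Left, edgeR log2 fold change (treated against untreated, x axis) of each member with its SE as a bar. Right, log2 fold changes (y axis) of the tested genes of each list, filled where the edgeR adjusted p was under 0.05, with list medians as bars and the median of all tested genes, -0.03, as a dotted line; the members run from 2.85 to 10.03, and most partner genes lie near the dotted line.

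The spread among treated libraries was wide for the IFIT genes and narrow for OAS3. The highest treated library held 3.04 times the CPM of the lowest for IFIT1 and 3.06 times for IFIT5, against 2.33 for OAS1, 2.01 for OAS2, 2.12 for OASL and 1.25 for OAS3. Over all tested genes the median of this ratio was 1.47, and over the genes called higher it was 1.42. Treated replicate 3 was the highest for 7 of the 8 members, a position it held for 27.3% of all tested genes and 56% of the genes called higher. Treated replicate 1 was the lowest for 5 members, the 4 IFIT genes and OASL, a position for which no share over all genes was taken. For OASL it was nearly level with replicate 2, at 44.6 against 45.6 CPM. What sets these libraries apart was not tested.

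**Figure D4:**
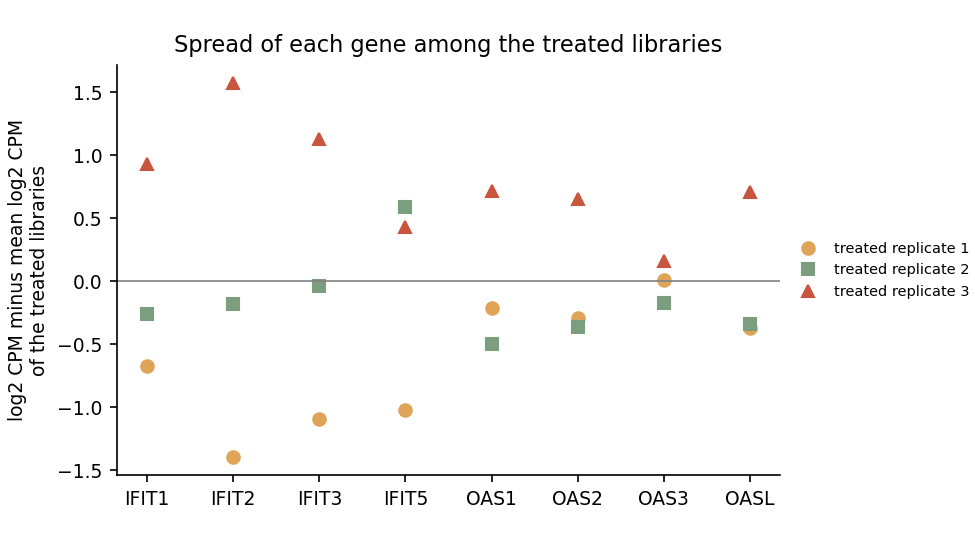
Log2 CPM of each member in each treated library minus the mean log2 CPM of the 3 treated libraries (y axis), with 1 symbol and colour per replicate. IFIT2 spreads from -1.39 to 1.57 and OAS3 from -0.17 to 0.16, and replicate 3 lies above the mean for all 8 genes.

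Because a direct RNA read is 1 molecule, CPM was taken as the level. Values per kilobase are given as a second scale, and their order depends on the length used as divisor. As CPM, treated cells held about as much OAS1, 412 ± 193, as OAS3, 409 ± 45.4, ahead of IFIT3 at 347 ± 254 (SD, n = 3 each). Per kilobase of all exonic bases in the files, IFIT3 had the highest treated value, 68.5 ± 50.1 CPM per kb. It was followed by OAS1 at 31.7 ± 14.8 and OAS3 at 22.6 ± 2.52 (SD, n = 3 each). IFIT1 at 21.4 ± 13.1, OAS2 at 18.2 ± 7.66, IFIT2 at 10.5 ± 10.2, OASL at 9.75 ± 4.52 and IFIT5 at 5.66 ± 2.77 CPM per kb came after them. Ranges over libraries overlapped between all neighbours in this order. In untreated cells OAS3 led at 1.29 ± 0.209 CPM per kb, with IFIT3 at 1.25 ± 1.16 and IFIT1 at 0.85 ± 0.473, and OASL and OAS2 were last at 0.0257 and 0.0134. The exonic bases of OAS1 in the files, 13021, were many more than the 1684 of its principal transcript, so the order was also taken per kilobase of that transcript, an alternative added after the lengths were seen. On that scale OAS1 came first in treated cells at 245 ± 115 CPM per kb and IFIT3 came next at 139 ± 102, while IFIT5 stayed last at 6.16 ± 3.01 (SD, n = 3 each). IFIT1 at 52.5 and OASL at 18.9 CPM per kb were then the only neighbours whose ranges did not overlap.

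The composition of each family was compared next. Summed over the 4 IFIT genes, the level was 6.78, 10 and 26.2 CPM in the untreated libraries and 213, 414 and 921 CPM in the treated ones. Summed over the 4 OAS genes it was 29.7, 28.3 and 29.2 CPM in untreated and 945, 832 and 1485 CPM in treated libraries. The untreated OAS sum was thus nearly even over replicates while the IFIT sum was not. The OAS members themselves were less even. In untreated replicate 3, OAS1 was higher, at 9.5 CPM against 3.91 and 2.83, and OAS3 was lower, at 19 CPM against 25.5 and 25.5. Mean sums were 36 times higher for IFIT and 37.4 times higher for OAS, and each gave a 2-sided exact permutation p of 0.1, the smallest that 3 against 3 libraries allow. On the log2 scale the IFIT change of 5.17 became 5.94 without untreated replicate 3 and 4.45 without treated replicate 3, while the OAS change of 5.23 ran from 4.93 to 5.39 when 1 library was left out. The IFIT sum was 30.7% ± 14.9 of both families in untreated and 30% ± 10.4 in treated cells (SD, n = 3 each; exact permutation p = 0.9), and the sign of that difference changed when untreated replicate 3 (7.59 percentage points) or treated replicate 1 (5.06) was left out.

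**Figure D5:**
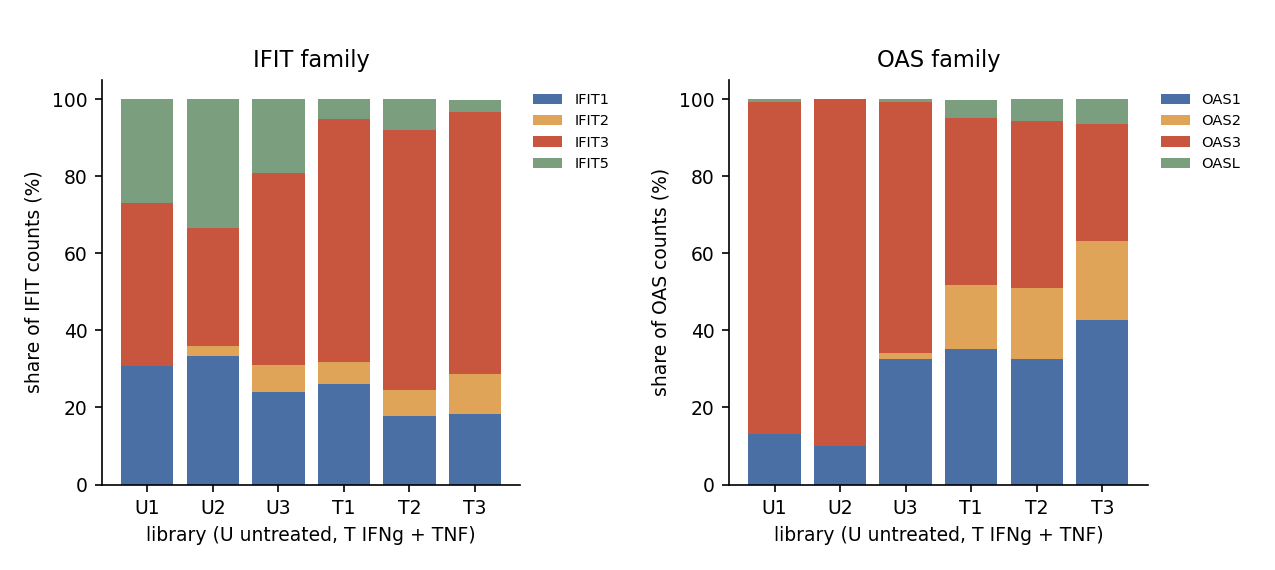
Share of each member (percent, y axis, stacked) in the summed counts of its family, for the 3 untreated (U) and 3 treated (T) libraries. IFIT5 narrows and IFIT3 widens in treated libraries, and OAS3 gives way to OAS1, OAS2 and OASL.

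Within the IFIT family, IFIT3 made up 42.3%, 30.8% and 50% of the untreated counts and 63.1%, 67.4% and 68.1% of the treated counts. IFIT5 made up 26.9%, 33.3% and 19% in untreated and 5.14%, 8.08% and 3.24% in treated libraries. For both genes the groups did not overlap, whereas the shares of IFIT1 and IFIT2 did overlap between groups. Within the OAS family, OAS3 made up 86%, 90% and 65.1% of the untreated counts and 43.3%, 43.6% and 30.6% of the treated counts. OAS2 made up 0%, 0% and 1.55% in untreated and 16.8%, 18.2% and 20.5% in treated libraries. The share of OAS1 was 32.6% in untreated replicate 3 and 32.7% in treated replicate 2, so its groups only just failed to overlap. Of 9 shares compared, IFIT3, IFIT5 and the 4 OAS genes each had an exact permutation p of 0.1, or 0.15 after Benjamini-Hochberg adjustment over the 9.

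Ratios between members of a family show whether they changed by different amounts in the same library. Of 12 pairs, 10 had non-overlapping groups, each with the smallest possible exact permutation p of 0.1 and an adjusted p of 0.12 over the pairs, so none could pass 0.05 in this design. On the log2 scale the ratio of IFIT3 to IFIT5 was 0.63 ± 0.74 without and 3.68 ± 0.67 with the cytokines (SD, n = 3 each). The ratio of OAS2 to OAS3 went from -6.78 ± 1.47 to -1.07 ± 0.43 and that of OAS1 to OAS3 from -2.26 ± 1.12 to -0.08 ± 0.49 (SD, n = 3 each; log2 scale with 0.5 counts added). OAS2 had 0, 0 and 2 untreated counts and OASL had 1, 0 and 1. Untreated ratios with either gene therefore rest largely on the 0.5 added, and the size of their shift is uncertain. IFIT2 and IFIT3 were the pair with the least difference, a log2 ratio of -3.46 ± 0.94 without and -3.14 ± 0.38 with the cytokines (SD, n = 3 each; exact permutation p = 0.8), and the difference of 0.32 turned to -0.22 without untreated replicate 1. OAS1 and OAS2 were at nearly the same log2 ratio in every treated library, 1.06, 0.84 and 1.06.

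Genes lying beside the members were read from the same fit. Of 42 genes within 200 kb of a member, 15 had a count and 8 were tested. By edgeR 0 of these 8 were past the threshold, against 5.58% called higher and 2.55% called lower over all tested genes. So few genes cannot be told from that background. Of the 8, 4 were at an unadjusted edgeR p under 0.05, a level for which no share over all genes was taken. DESeq2 called 1 higher (P2RX4) and 1 lower (RITA1), and limma voom 0. LIPA, a lysosomal acid lipase gene whose span runs across the IFIT genes on the other strand, differed by 0.42 on the log2 scale (SE 0.37; edgeR adjusted p = 0.641). The family members and pseudogenes IFIT1B and IFIT6P, which lie within the IFIT span, had 0 counts in all 6 libraries, and so did the antisense gene ENSG00000257452 on the minus strand across OAS1, OAS3 and OAS2. Counting was strand-specific per the file headers. Principal transcripts of members of a family shared identical stretches of at most 26 bases (IFIT2 with IFIT3), and 12.1% of the exonic bases of IFIT2 were shared with the same-strand gene ENSG00000232110.

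Other genes with the most similar profiles were found by the root mean square difference of log2 CPM, centred on each gene's mean, over the 6 libraries, among the 6736 genes whose mean reached 10 CPM. For the mean IFIT profile they were SOD2 (a mitochondrial superoxide dismutase; 0.42), IFIH1 (0.43), IFI44 (0.53) and C3 (complement; 0.59). For the mean OAS profile they were SCARF1 (a scavenger receptor; 0.22), C1R (complement; 0.33), HLA-DRA (class II antigen presentation; 0.37) and CMPK2 (0.38). These last 4 had 0 to 3 counts in each untreated library, so their untreated values rest largely on the 0.5 CPM added before the log. The same measure between a member and the mean of its family ran from 0.23 for IFIT1 to 1 for IFIT5 and from 0.2 for OASL to 1.15 for OAS3. Each member is part of the mean it is measured against, which lowers its value, so members and other genes are not compared on equal terms.

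Among 5 genes listed with the OAS pathway, 3 were tested and 2 of these were not past the threshold. ABCE1, an ATP-binding protein of ribosome recycling, differed by -0.19 on the log2 scale (SE 0.33; edgeR adjusted p = 0.854) and PDE12, a phosphodiesterase that degrades the adenylate chains, -0.1 (SE 0.32; edgeR adjusted p = 0.928). CGAS, a DNA sensor that shares the enzyme fold of the OAS proteins and is not counted here as acting on their products, was the 1 of 3 tested genes that rose. Its log2 fold change was 1.47 (SE 0.36; edgeR adjusted p = 0.0398). That call was lost with library totals (edgeR adjusted p = 0.0525), without untreated replicate 2 and without each treated replicate, where the edgeR adjusted p reached 0.14. The median log2 fold change of the 3 tested genes was -0.1, and 5.58% of all tested genes were called higher.

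Of 10 genes that set the cap or bind IFIT proteins, 8 were tested and 2 rose (all tested genes: 5.58% called higher), with a median of -0.34. STING1, the adaptor of cytosolic DNA sensing, rose by 2.43 (SE 0.27; edgeR adjusted p = 0.000574). CMTR1, the enzyme that puts the ribose methyl group on the cap that IFIT1 avoids, rose by 0.8 (SE 0.20; edgeR adjusted p = 0.0385), a call lost in 5 of the 6 fits that left out 1 library, in all but the one without untreated replicate 3. CMTR2 and MAVS of this list had log2 fold changes of -0.32 and -0.42 and were not past the threshold.

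Upstream of the members, 8 of 14 tested interferon receptors, transcription factors and regulators rose (all tested genes: 5.58% called higher), with a median of 2.11. IRF1 rose from 33.8 ± 5.93 to 1325 ± 156 CPM (SD), or by 5.29 on the log2 scale (SE 0.22; edgeR adjusted p = 3.34e-06). IRF7 rose by 3.94, STAT2 by 2.6 and IRF2 by 2.25, and the feedback inhibitors USP18 and SOCS1 rose by 5.45 and 5.15. The receptor gene IFNAR2 rose by 1.96 (edgeR adjusted p = 0.016), a call lost without untreated replicate 2, treated replicate 2 or treated replicate 3 (edgeR adjusted p up to 0.0952). STAT2, like the IFIT genes, was highest in replicate 3 among untreated libraries, at 39.6 CPM against 12.1 to 13.3 in the others. IRF3 had 0.92 with an edgeR adjusted p of 0.0504, and it passed the threshold in 7 of 13 alternatives. IRF9 was at 0 counts in all libraries, and 77.4% of its last 500 exonic bases are shared with another gene on its strand, where reads are left uncounted. Of 21 interferon genes, IFNB1 and the IFNA genes of the list were at 0, and IFNL1, IFNL2 and IFNL3 had counts in treated libraries alone, 5, 2 and 1 in all.

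Among sensors of double-stranded RNA, the ligand of the OAS enzymes, 4 of 5 tested genes rose (all tested genes: 5.58% called higher), with a median of 4.2. IFIH1 rose by 4.2 (SE 0.65; edgeR adjusted p = 0.00424), and DHX58 by 4.2 (SE 0.46; edgeR adjusted p = 0.000513). ADAR, an RNA editing enzyme, rose by 1.45, and ZBP1, at 0 in untreated libraries, was at least 8.72-fold higher against 3 counts per library. EIF2AK2, the kinase PKR, had 1.25 with an edgeR adjusted p of 0.0628, and it passed the threshold in 6 of 13 alternatives. RIGI, the partner of OASL, had a single count, in treated replicate 3, and 95.8% of its last 500 exonic bases are shared with another gene.

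Of 30 other interferon-stimulated antiviral genes, 23 were tested and 22 rose (all tested genes: 5.58% called higher). Their median was 4.75 beside 5.81 for the 8 members. Some, MX2, XAF1, EPSTI1 and CXCL10 among them, had 0 counts in every untreated library and so entered the test through the treated group. ISG15 rose from 67.5 to 1762 CPM and MX2, at 0 in untreated libraries, was at least 41.3-fold higher by its treated mean, from 17, 21.8 and 58.2 CPM in treated replicates 1, 2 and 3. BST2 rose by 2.54 on the log2 scale. MX1, a gene often read beside these families, had 3, 5 and 2 untreated counts and 10, 7 and 16 treated counts and was not tested. HERC5 had 1.98 with an edgeR adjusted p of 0.369, and 7.12 with 0.0124 without untreated replicate 3, which held all 14 of its untreated counts.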

How the data were processed

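The values were read counts per gene that the authors deposited for 6 libraries, made with featureCounts 2.0.1 in long-read, strand-specific mode on Ensembl release 105, per the file headers. Minimap2 2.24, SAMtools 1.16, featureCounts 2.0.0 and hg38 are named in the submitters' processing notes. Libraries came from 500 ng of poly(A) RNA, run for 72 h, with reads of quality above 7, per the labels' protocols and design text. The file headers' alignment names carry the word dmso, which the labels do not mention, so groups were taken from the sample titles. All 8 members matched a gene name.

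Counts were tested with edgeR 4.0.16 (R 4.3.3): filterByExpr, TMM, quasi-likelihood F test, group as the sole term, Benjamini-Hochberg adjustment over 10067 genes, threshold 0.05. CPM uses TMM-normalised library sizes. SEs are the absolute log2 fold change over the square root of F. The method was tested on simulated data. Single-value measures used exact permutation tests, 2-sided (scipy 1.17.1). Principal transcripts come from GENCODE 29, promoters from RefSeq. Named genes are the 8 members, genes of the lists, the 4 most similar profiles per family and tested neighbours; MX1 and other untested or uncalled list genes were added after their values were seen. Members and lists were chosen with earlier results of these data known. Alternatives were 2 normalisations, 2 filters, a replicate block, DESeq2 1.42.0, limma 3.58.1 voom, leaving out each library, other length scales and other motif spacings. Depth limits levels under 3 counts per library. Single values of some list members and neighbours are not reported here.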

Additional observations from a re-analysis of the deposited data

How the results depend on the processing

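The 8 members were past the threshold, and higher in treated cells, in all 13 alternatives of the test, with an adjusted p of at most 0.0426 (IFIT2, limma voom). Of 74 genes followed, 9 changed side of the threshold in at least 1 alternative, and none of the 9 was a member. No gene past the threshold changed sign, and 8 that were not past it did, ABCE1, PDE12, CMTR2 and JAK1 among them. The counts over all genes moved more. With every gene of at least 1 count they were 849 higher and 479 lower, and leaving out 1 library gave 358 to 733 higher and 96 to 445 lower, the highest of both without untreated replicate 3. Library totals gave 485 higher and 364 lower and placed the median log2 fold change at -0.13.

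With the replicate number as a block (the replicate block), 907 genes were higher and 606 lower, and 8 of 8 members were higher. Deviations of same-numbered libraries correlated at 0.651, -0.004 and 0.374 for replicates 1, 2 and 3. Treated replicates 1 and 3 correlated best with the untreated library of the same number, but treated replicate 2 with untreated replicate 3 (0.413). Whether same-numbered libraries were handled together was not tested.

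Among neighbouring genes, 1 was higher with the filter of at least 1 count, the replicate block or DESeq2, and 1 was lower with library totals, the replicate block or DESeq2, with 0 to 1 in each direction when 1 library was left out. Of the genes listed with the OAS pathway, 0 were higher with library totals and 0 to 1 with 1 library left out, and of the cap and IFIT partners 1 to 2. The IFIT2 to IFIT3 ratio ran from -0.22 to 0.65, and the IFIT share of both families from -6.8 to 7.59 percentage points, when 1 library was left out. With 1 or 3 free bases between the half-sites, 3.12% and 2.86% of promoters held the motif. The causes were not tested.

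Depth limits OAS2, OASL and IFIT2, whose untreated values rest on 2, 2 and 9 counts, so the size of their change is less certain than its direction. With 3 libraries a group, exact permutation tests cannot go below 0.1. All libraries come from a single line and time point.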
